A study of Mus musculus with 18 samples.

Results

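Insulin, phosphoinositide 3-kinase (PI3K) and FoxO signalling was followed through 10 genes in mouse hearts that received a phospholipase C vector or a blank vector. They were chosen by name for their place in the pathway and make up 10 of the 23457 genes in the count table. In order of signalling they are the insulin-like growth factor 1 receptor Igf1r, the docking proteins Irs1 and Irs2, the PI3K subunits Pik3r1, Pik3ca and Pik3cg, the kinases Akt1 and Akt2, and the transcription factors Foxo1 and Foxo3. All 10 were found in both deposited tables and passed the filter on low counts. In the mm10 gene models Pik3r1 lies at chr13:101680762-101768217, Akt1 at chr12:112653821-112674276, Irs1 at chr1:82233105-82291439 and Irs2 at chr8:10986964-11008430, all on the minus strand. Irs2 overlaps a gene on the opposite strand, 9530052E02Rik, in libraries that kept strand.

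When insulin or insulin-like growth factor binds its receptor, the docking proteins are phosphorylated and recruit PI3K, which converts the membrane lipid PIP2 into PIP3. PIP3 brings Akt to the membrane, and active Akt phosphorylates FoxO factors and keeps them out of the nucleus. In heart muscle this pathway is known for its part in glucose uptake, growth and survival. Phospholipase C cleaves the same lipid, PIP2, so both enzymes draw on a common substrate.

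RNA was sequenced from the hearts of 18 male C57BL/6 mice aged 17 weeks, 6 in each of 3 groups, every heart from a separate mouse. At 8 weeks of age each mouse had received a recombinant adeno-associated virus (rAAV6) through the tail vein, and hearts were taken 9 weeks later. The rAAV6-PLCβ1b and rAAV6-PLCβ1a vectors carried FLAG-tagged splice variants of phospholipase Cβ1, and rAAV6-blank carried a promoter without a protein product, so all 3 groups had been given virus. The promoter is not named in the sources used here, and the tissue is given as left ventricle in the methods but as both ventricles in the sample labels.

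The hearts had 13246339 to 24155465 counts, of which 3908354 to 7591558 fell on nuclear genes. Plcb1, the gene delivered, had 5.43 to 6.88 CPM (counts scaled to library size, with TMM factors for library composition) in the blank group. It reached 17.8 to 29.2 CPM with PLCβ1a and 23.1 to 69.95 with PLCβ1b, so neither PLC group overlapped the blank group. Vector and endogenous transcripts were not separated in these counts. The summed level of 6 cardiomyocyte markers was 14870 to 16380 CPM over all hearts, against 391.6 to 467.3 for 6 fibroblast markers and 38.33 to 52.68 for 7 leukocyte markers. Blank heart 30 stood apart for several of the genes described here. It had the highest Pik3r1 and Irs1 and the lowest Irs2 of all 18 hearts. Some values that turn on it are given without it beside them. It was also the extreme heart for other genes named below. Among them it was the lowest for Pik3c2b, Inpp5k, Gab1, Tbc1d4, Fos, Btg2, Ctsk and Tcap and the highest for Sesn1. The values given for those genes include it.

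The 10 genes covered a wide span of transcript levels. Levels between genes were compared as FPKM, a fragment count scaled by exon length and library size. Akt1, the most widely expressed Akt kinase, had the highest mean, at 22.6 ± 1.83 FPKM (SD, n = 18). Pik3r1, which encodes the p85α regulatory subunit and shorter isoforms of it, followed at 16.2 ± 1.74 FPKM. Akt2, the Akt kinase best known from insulin-stimulated glucose uptake, came next at 11.8 ± 1.05 FPKM. Neighbours in this upper part of the order did not overlap within any group of hearts.

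In the middle of the order lay Foxo3 at 7.37 ± 0.734 FPKM, Pik3ca at 6.11 ± 0.361 FPKM and Irs1 at 4.86 ± 0.493 FPKM. Pik3ca encodes the p110α catalytic subunit, the form of PI3K that serves insulin receptors. Foxo3 and Pik3ca overlapped in blank and PLCβ1a hearts but not in PLCβ1b hearts, while Pik3ca and Irs1 overlapped in PLCβ1a hearts alone. Irs1 in turn overlapped Irs2 in both PLC groups and not in blank hearts. Irs2 at 2.67 ± 1.03 FPKM and Foxo1 at 2.32 ± 0.229 FPKM overlapped in all 3 groups. Igf1r, at 1.94 ± 0.201 FPKM, overlapped Foxo1 in blank and PLCβ1a hearts.

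Pik3cg, which encodes the p110γ subunit that answers to G protein-coupled receptors and is abundant in leukocytes, was far below the others at 0.308 ± 0.0682 FPKM. Of all genes averaging 0.1 FPKM or more, 10.3% lay lower than Pik3cg, whereas 92.6% lay lower than Akt1. The order of the group means was the same in blank, PLCβ1a and PLCβ1b hearts, as the plot of levels by heart shows.

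**Figure D1:**
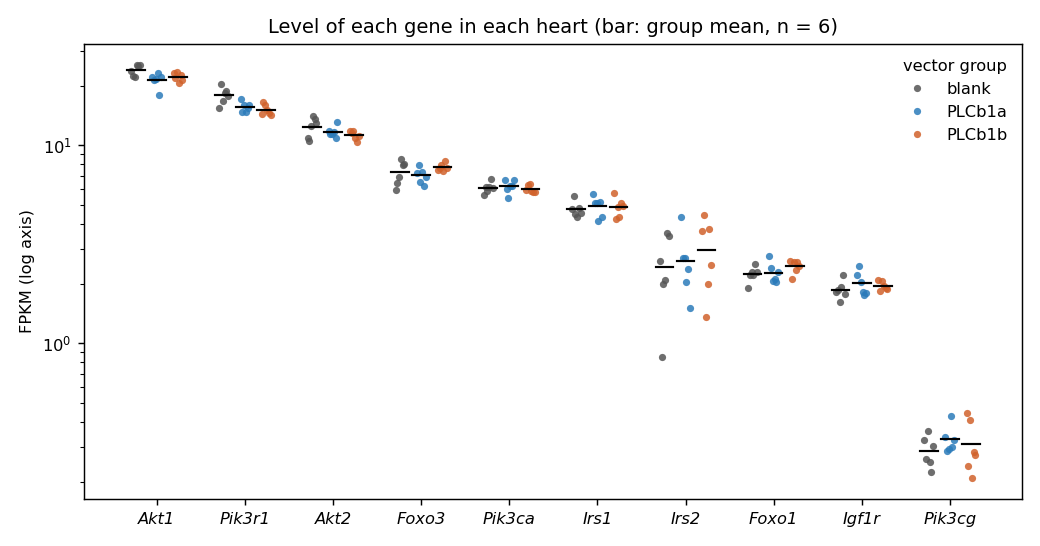
Level of each gene in each heart as FPKM on a log axis, with hearts coloured by vector group and a bar at each group mean (n = 6). Genes are ordered by mean level, from Akt1 at 22.6 FPKM to Pik3cg at 0.308 FPKM, and Irs2 has the widest scatter between hearts.

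The receptor, docking, PI3K and FoxO genes were also set against their closest relatives, as a share of the family's summed FPKM. Pik3ca made up 71.6 ± 1.92% of the 4 class I catalytic subunits (SD, n = 18), followed by Pik3cb at 18.1 ± 1.56%, Pik3cd at 6.65 ± 1.06% and Pik3cg at 3.61 ± 0.747%. The catalytic subunit family was therefore mostly p110α transcript in these hearts. Among FoxO factors Foxo3 held 53.6 ± 2.29%, Foxo4 27.1 ± 2.32%, Foxo1 16.9 ± 1.18% and Foxo6 2.43 ± 0.847%. For receptors, Insr, the insulin receptor, held 86.7 ± 0.626% and Igf1r 13.3 ± 0.626% of their sum.

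The docking proteins divided less evenly between hearts. Irs1 held 65.6 ± 8.80% of the sum of Irs1 and Irs2, with a range from 48.7% to 86.7%, so in the heart at the low end Irs2 was the more abundant of the pair. The high end was blank heart 30, and without it the highest share was 78.2% and the mean 64.3 ± 7.27%. Irs4 did not pass the filter on low counts. The shares of the other members described above had SDs of at most 2.29 percentage points.

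Among class I regulatory subunits Pik3r1 held the largest part, and that part was smaller in both PLC groups than in blank hearts. For the blank group the share was 73.7% at the lowest, 74.9% at the median and 79.6% at the highest. In PLCβ1a hearts the corresponding shares were 70.5%, 72% and 74.5%, and in PLCβ1b hearts 70.4%, 71.8% and 73.5%. PLCβ1b and blank hearts did not overlap. The mean share differed from blank by -3.72 percentage points in PLCβ1b hearts (n = 6 and 6, exact permutation test, two-sided p = 0.00216, the smallest the design allows) and by -3.44 points in PLCβ1a hearts (exact permutation p = 0.00433). Without blank heart 30 the differences were -2.92 and -2.63 points, with exact permutation p-values of 0.00433 and 0.00649.

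The next largest part was that of Pik3r2, the gene of p85β. Pik3r2 held 9.25 to 12.7% with the blank vector, 12.8 to 13.8% with PLCβ1a and 11.9 to 15.3% with PLCβ1b. The share of a family is relative, so a smaller share of Pik3r1 and a larger share of Pik3r2 are not separate results. These share tests were added after the values had been seen. Among 60 comparisons of a share between groups, 8 had an exact permutation p below 0.05. The Pik3r1 differences had p = 0.0649 (PLCβ1b) and p = 0.0866 (PLCβ1a) after Benjamini-Hochberg adjustment over those 60 permutation tests. The share of Foxo4 among FoxO factors was also lower in both PLC groups. Its mean was 29% in blank, 25.4% in PLCβ1b and 26.9% in PLCβ1a hearts. The exact permutation p-values against blank were 0.0152 and 0.0303, and 0.182 and 0.278 after the same adjustment.

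**Figure D2:**
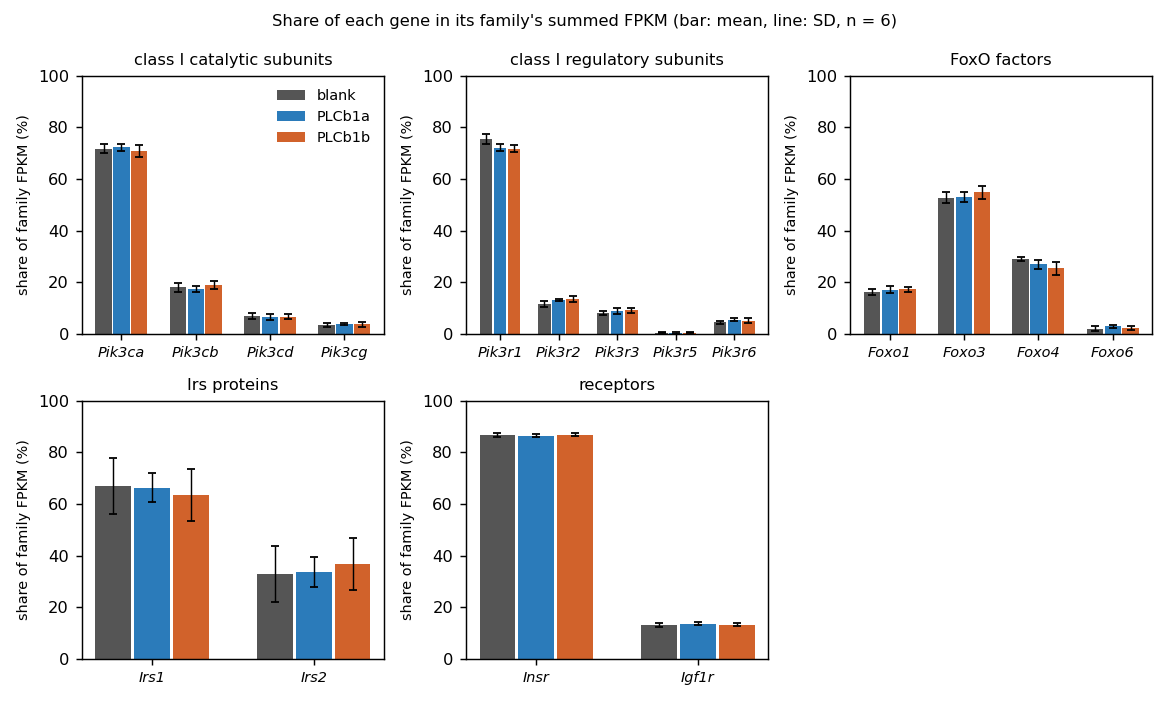
Share of each gene in the summed FPKM of its family, in percent, for blank, PLCβ1a and PLCβ1b hearts (bars: mean, lines: SD, n = 6). Pik3ca, Pik3r1, Foxo3, Irs1 and Insr lead their families in all 3 groups, and the mean share of Pik3r1 is 75.5% with the blank vector, 72.1% with PLCβ1a and 71.8% with PLCβ1b.

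The comparison of PLCβ1b with blank hearts asks whether transcripts of the pathway differ after delivery of that splice variant. Counts were fitted with edgeR's quasi-likelihood test over all 12281 genes that passed the filter, and a gene was called at a false discovery rate (FDR, Benjamini-Hochberg over all genes) below 0.1. None of the 10 genes was called in this comparison, against 0.0977% of all genes. At an unadjusted p below 0.05 the same edgeR test took 3 of the 10 (Pik3r1, Akt1 and Foxo1), against 7.41% of all genes. DESeq2 called 1 of the 10, against 24 of the 12281 genes, and edgeR's exact test called 0, against 22 of them. In whole tissue, a lower count can come from fewer cells of a type or from less RNA per cell, and these cannot be told apart. All 6 fibroblast markers had estimates above 0 for PLCβ1b against blank, 2 of them at an unadjusted p below 0.05 and none called, with mean sums of 415.1 CPM in blank and 443.4 CPM in PLCβ1b hearts. All 4 atrial markers had estimates below 0, with a median log2 fold change of -0.36 and none at an unadjusted p below 0.05. In CPM 1 of these 4 was lower in every PLCβ1b heart than in every blank heart, where 0.48% of all genes had no overlap in either direction. The part of cell composition in the results below was not tested.

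Pik3r1 stood closest to the threshold. Its level was 95.4 CPM at the lowest, 102.7 at the median and 125.5 at the highest in blank hearts, and 79.5, 91.0 and 96.5 CPM in PLCβ1b hearts. Of the 6 PLCβ1b hearts, 5 lay below every blank heart and the groups overlapped by the remaining heart. In FPKM 4 lay below every blank heart. The log2 fold change was -0.23 (SE 0.06, 95% interval -0.35 to -0.12), or 0.852 of the blank level, with an edgeR FDR of 0.186, and Pik3r1 ranked 19th of all genes by p. With DESeq2 the FDR was 0.0744, with no filter on low counts it also passed, and without blank heart 26 it was 0.0841. Without blank heart 30 the log2 fold change was -0.17 with an edgeR FDR of 0.226.

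Akt1 differed less. It had 49.5, 52.3 and 53.5 CPM (lowest, median, highest) in blank hearts and 46.2, 47.85 and 52.0 CPM in PLCβ1b hearts. Of these PLCβ1b hearts 5 lay below every blank heart in CPM and 3 in FPKM. The log2 fold change was -0.10 (SE 0.04), with an edgeR FDR of 0.588. Foxo1, a FoxO factor known from metabolic and endothelial control, had 9.18, 10.4 and 10.85 CPM in blank hearts and 9.79, 11.5 and 12.4 CPM in PLCβ1b hearts. Here 5 of the 6 PLCβ1b hearts lay above every blank heart in CPM and 3 in FPKM. Its log2 fold change was 0.15 (SE 0.07) with an edgeR FDR of 0.648.

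Among the genes without such a difference, Irs1 had 32.4, 35.8 and 44.7 CPM (lowest, median, highest) with the blank vector, 31.7, 40.4 and 44.4 CPM with PLCβ1a and 32.95, 38.6 and 42.4 CPM with PLCβ1b. Pik3ca had 45.0, 45.6 and 49.6 CPM, then 43.4, 48.1 and 52.1 CPM, and 43.5, 46.6 and 47.7 CPM in the same order of groups. The 3 groups overlapped for both. In that order Akt2 had 23.1, 26.4 and 28.2 CPM, then 22.2, 25.4 and 27.2 CPM, and 23.8, 25.2 and 27.7 CPM. Pik3cg had 1.21, 1.64 and 2.29 CPM, then 1.68, 1.84 and 2.36 CPM, and 1.21, 1.64 and 2.45 CPM. For Pik3cg the highest heart had 2.02 times the level of the lowest, against 1.201 times for Pik3ca, and again the groups overlapped.

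The other 7 genes had intervals that included 0 in this comparison. That of Pik3ca was the narrowest about 0, from -0.10 to 0.08 on the log2 scale around an estimate of -0.01. That of Irs2 was the widest, from -0.44 to 1.01 around 0.28, an estimate that was 0.11 without blank heart 30. Leaving out PLCβ1b heart 6 gave 0.14, and leaving out PLCβ1b heart 8 gave 0.44. Akt2 stood at -0.02, Irs1 at 0.05, Igf1r at 0.08, Foxo3 at 0.10 and Pik3cg at 0.14. The median log2 fold change of the 10 genes was 0.07, against 0.00 for all genes, and 6 of the 10 estimates were above 0. None of the 10 genes separated the groups without overlap in CPM, against 0.48% of all genes.

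PLCβ1a is the splice variant of the same enzyme with another C-terminal tail, so PLCβ1a hearts share with PLCβ1b hearts the virus and a phospholipase insert. The 6 blank hearts serve in both comparisons, which are therefore not independent. None of the 10 genes was called between PLCβ1a and blank hearts by edgeR's quasi-likelihood test, against 0.138% of all genes. At an unadjusted p below 0.05 it took 3 of the 10 (Pik3r1, Akt1 and Igf1r), against 8.58% of all genes. DESeq2 called 1 of the 10, against 33 of the 12281 genes, and edgeR's exact test called 0, against 45 of them. No gene of the 10 was without overlap, against 0.594% of all genes. Of the fibroblast markers 5 of 6 had estimates above 0, with Lum at 0.23 (SE 0.06) and Col3a1 at 0.17 (SE 0.07). Alas2, the only 1 of 6 erythrocyte markers that was tested, stood at 0.63 (SE 0.20). All 3 of these genes had an unadjusted edgeR p below 0.05 and none was called. Their part in the results was not tested.

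Akt1 was the gene nearest to the threshold here, with 43.9, 46.8 and 49.7 CPM in PLCβ1a hearts. Of these hearts, 5 lay below every blank heart in CPM and 3 in FPKM. The log2 fold change was -0.14 (SE 0.04, 95% interval -0.23 to -0.06), or 0.905 of the blank level, with an edgeR FDR of 0.256 and a DESeq2 FDR of 0.0968. Pik3r1 had 85.1, 94.6 and 100.4 CPM in PLCβ1a hearts, and all 6 lay below the blank median. Its log2 fold change was -0.17 (SE 0.06) with an edgeR FDR of 0.317, and -0.11 without blank heart 30.

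Igf1r, the receptor that binds insulin-like growth factor 1, had 17.65, 19.4 and 20.97 CPM in blank hearts and 18.6, 21.1 and 25.7 CPM in PLCβ1a hearts. The highest value belonged to PLCβ1a heart 9, and 3 of the 6 hearts lay above every blank heart in CPM and 1 in FPKM. The log2 fold change was 0.15 (SE 0.06), with an edgeR FDR of 0.483, and without PLCβ1a heart 9 it was 0.08 with an edgeR FDR of 0.762. The remaining 7 genes had intervals that included 0, with estimates from -0.04 for Foxo3 to 0.20 for Pik3cg.

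**Figure D3:**
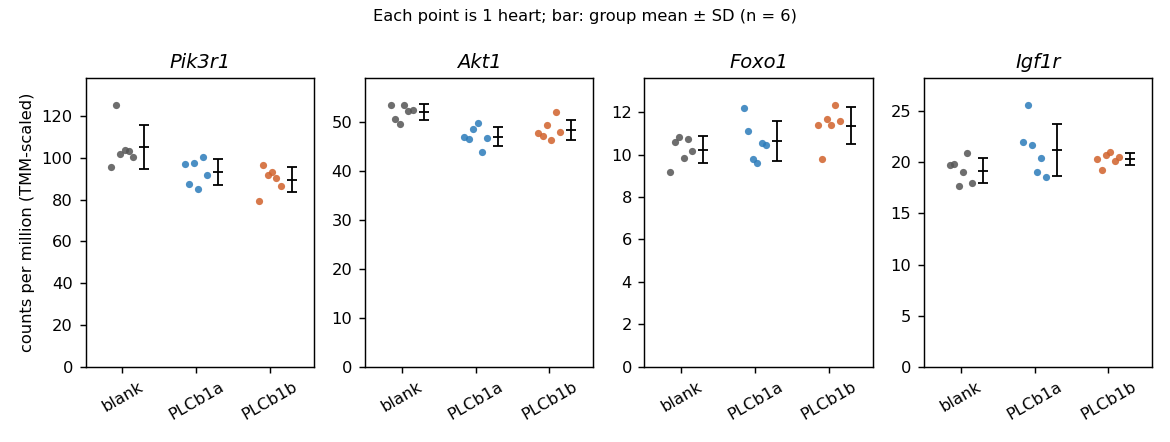
TMM-scaled CPM of Pik3r1, Akt1, Foxo1 and Igf1r in each heart, from 0, with the group mean and SD (n = 6) beside the points. Blank heart 30 is the high point of Pik3r1 at 125.5 CPM, and the groups overlap for every gene shown.

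Between PLCβ1b and PLCβ1a hearts the vectors differ in the splice variant. The estimate for Plcb1 itself was a log2 fold change of 1.09 (SE 0.22), so variant and level cannot be told apart. In this comparison the main fit did not call even the delivered gene (edgeR FDR 0.801). Plcb1 was called in 4 of 30 other settings, and with single hearts left out its edgeR FDR went down to 0.0382. Over all settings, other tests and ways of fitting included, its lowest FDR was 4.32e-06, so the call depended strongly on the method. The quasi-likelihood test of edgeR called none of the 10 genes and 0% of all genes. At an unadjusted p below 0.05 it took only Foxo3 of the 10, against 4.42% of all genes. DESeq2 and edgeR's exact test called 0 of the 10, against 1 and 2 of the 12281 genes. None of the 10 was without overlap, against 0.179% of all genes.

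Foxo3, a FoxO factor that drives atrophy and autophagy genes in muscle, had 16.4, 17.2 and 19.8 CPM in PLCβ1a hearts and 17.5, 19.4 and 22.3 CPM in PLCβ1b hearts. Every PLCβ1b heart was above the PLCβ1a median, and the groups overlapped. The log2 fold change was 0.14 (SE 0.07, 95% interval 0.01 to 0.27) with an edgeR FDR of 1. For Pik3r1 it was -0.06 (95% interval -0.17 to 0.06) and for Akt1 0.04 (95% interval -0.04 to 0.12). The remaining 7 estimates lay between -0.07 for Igf1r and 0.16 for Irs2.

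**Figure D4:**
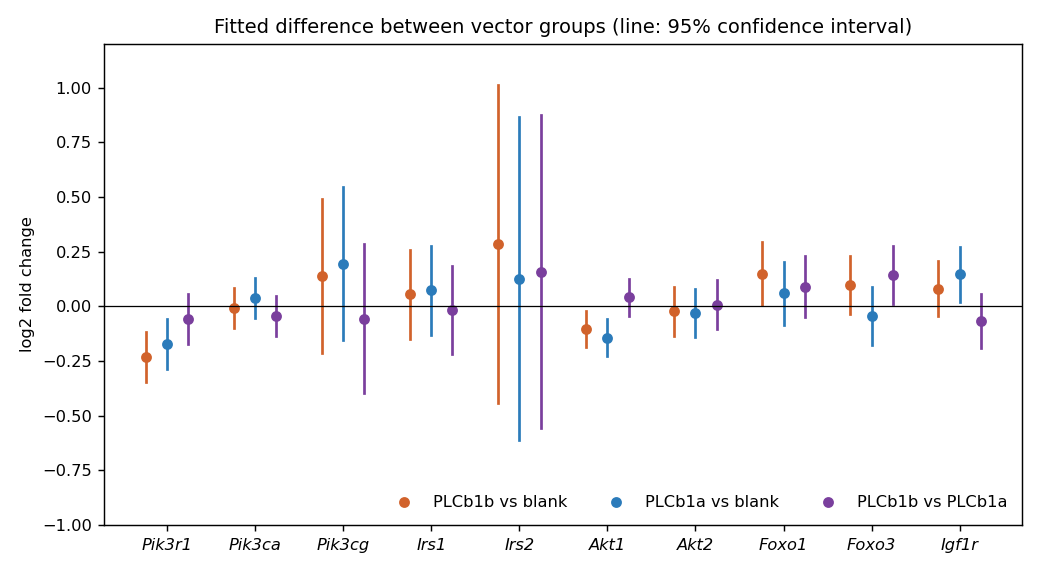
Log2 fold change of each gene in 3 comparisons of vector groups, from edgeR's quasi-likelihood fit, with 95% confidence intervals as lines. Intervals lie wholly below 0 for Pik3r1 and Akt1 in both comparisons with blank hearts, and that of Irs2 runs from -0.44 to 1.01 for PLCβ1b against blank.

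The wider pathway was read from 78 further genes in 7 lists, of which 72 passed the filter. No gene of these 72 was called by edgeR's quasi-likelihood test in any of the 3 comparisons. At an unadjusted p below 0.05 it took 5 between PLCβ1b and blank hearts, or 6.94% against 7.41% of all genes. These 5 had estimates above 0, while over all genes 484 were above and 426 below. Between PLCβ1a and blank hearts it took 9, or 12.5% against 8.58%, with 6 above and 3 below 0. Between PLCβ1b and PLCβ1a hearts it took 5, or 6.94% against 4.42%, with 2 above and 3 below 0. DESeq2 and edgeR's exact test called 0 of the 72 in each comparison.

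Among ligands and receptors, 7 of 10 genes were tested, and Ins1 and Ins2, the insulin genes, did not pass the filter. All 7 estimates were above 0 for PLCβ1b against blank, with a median log2 fold change of 0.09 and none at an unadjusted edgeR p below 0.05. Insr itself had 92.2, 98.7 and 106.5 CPM (lowest, median, highest) with the blank vector, 90.8, 103.5 and 119.6 CPM with PLCβ1a and 98.7, 105.1 and 110.9 CPM with PLCβ1b. Its log2 fold change for PLCβ1b against blank was 0.09 (SE 0.05) with an edgeR FDR of 0.743. Igf2r, which binds insulin-like growth factor 2, stood at 0.07 (SE 0.04) for PLCβ1a against blank.

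Docking proteins and adaptors had 8 of 11 genes tested, with a median log2 fold change of 0.02 for PLCβ1b and 0.01 for PLCβ1a against blank. Gab1, a docking protein that recruits PI3K and the phosphatase encoded by Ptpn11, stood at 0.11 (SE 0.05) in PLCβ1a hearts. Ptpn11 stood at -0.07 (SE 0.04) in the same comparison.

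All 9 further PI3K genes were tested. Pik3c2b, a class II PI3K, had 13.8, 16.6 and 17.7 CPM in blank hearts and 16.03, 19.7 and 21.7 CPM in PLCβ1b hearts, with a log2 fold change of 0.23 (SE 0.07) and an edgeR FDR of 0.349. Of the PLCβ1b hearts 4 lay above every blank heart. Pik3c2a, its relative, stood at -0.14 (SE 0.06) for PLCβ1b against PLCβ1a. The class I family relatives of Pik3r1 and Pik3ca (Pik3cb, Pik3cd, Pik3r2, Pik3r3, Pik3r5 and Pik3r6) had 95% intervals that included 0 in every comparison. The counts of Pik3r2 alone therefore did not show the difference seen in its share.

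Phosphatases that remove phosphates from PIP3 and related lipids were 7, all tested. Inpp5k stood at 0.18 (SE 0.07) in PLCβ1b and 0.15 (SE 0.07) in PLCβ1a hearts against blank, and Inpp4b at -0.15 (SE 0.06) for PLCβ1b against PLCβ1a.

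Akt kinases and their regulators were 10, all tested. Trib3, a pseudokinase that binds Akt, had the largest estimate of this list at -0.78 (SE 0.35) in PLCβ1a hearts, at a level of only 0.168 to 1.27 CPM over all hearts. Phlpp1, a phosphatase of Akt, stood at 0.12 (SE 0.07) in the same comparison and at 0.08 without blank heart 30.

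Akt substrates and the mTORC1 arm had 13 genes, all tested. Tbc1d4 encodes the Akt substrate AS160, which holds glucose transporters inside the cell until Akt phosphorylates it. Tbc1d4 was the 1 gene of the 72 without overlap between PLCβ1a and blank hearts in CPM, where 0.594% of all genes were. It had 55.1, 63.6 and 67.2 CPM in blank hearts and 67.3, 69.3 and 72.5 CPM in PLCβ1a hearts, so the lowest PLCβ1a heart and the highest blank heart nearly met. In FPKM the groups overlapped, and 1 PLCβ1a heart lay above every blank heart. In PLCβ1b hearts Tbc1d4 had 59.0, 63.0 and 69.2 CPM. The log2 fold change was 0.14 (SE 0.05) for PLCβ1a against blank, with an edgeR FDR of 0.293, and -0.13 (SE 0.05) for PLCβ1b against PLCβ1a, with an edgeR FDR of 0.972. Rptor, the scaffold of mTORC1, stood at 0.19 (SE 0.06) for PLCβ1b against blank.

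Other FoxO factors and known FoxO targets were 18, all tested, with medians of -0.02 for PLCβ1b and -0.03 for PLCβ1a against blank. Cited2, a transcriptional coregulator and FoxO target, had 8.44, 9.21 and 10.6 CPM with the blank vector, 9.49, 11.6 and 12.1 CPM with PLCβ1a and 10.5, 10.9 and 13.04 CPM with PLCβ1b. Of the PLCβ1b hearts 5 lay above every blank heart in CPM and 3 in FPKM. Its log2 fold change was 0.29 (SE 0.08) for PLCβ1b, with an edgeR FDR of 0.196, and 0.25 (SE 0.08) for PLCβ1a, with an edgeR FDR of 0.277. Sesn1, a stress-induced inhibitor of mTORC1, had 50.02, 54.7 and 65.1 CPM with the blank vector, 41.7, 47.3 and 57.6 CPM with PLCβ1a and 52.7, 54.1 and 58.3 CPM with PLCβ1b. Its log2 fold change was -0.22 (SE 0.07) in PLCβ1a hearts, of which 5 lay below every blank heart, with an edgeR FDR of 0.322 and of 0.0827 without PLCβ1a heart 9. Foxo4 stood at -0.12 (SE 0.07) and -0.16 (SE 0.07) in PLCβ1b and PLCβ1a hearts, and Foxo6 at 0.21 (SE 0.29) and 0.41 (SE 0.28).

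Between hearts of the same group, 1 of the 10 genes varied far more than the rest. As a biological coefficient of variation (edgeR's gene-wise dispersion, square root), Irs2 had 0.316, and 99.6% of all tested genes lay lower. The same measure was 0.0419 for Akt1, 0.0493 for Pik3ca and 0.0662 for the median gene. With the blank vector Irs2 had 2.999 CPM at the lowest, 8.56 at the median and 12 at the highest. The corresponding levels were 4.97, 9.26 and 15.1 CPM with PLCβ1a, and 4.65, 10.6 and 15.3 CPM with PLCβ1b. The highest heart, PLCβ1b heart 6, had 5.09 times the level of the lowest, blank heart 30, and 3.29 times that of the lowest of the other 17. The 3 groups overlapped, and 3 of the 6 PLCβ1b hearts lay above every blank heart.

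Irs2 is known as a docking protein whose transcription responds quickly to fasting, cyclic AMP and insulin, and Irs1 as the more stable partner. The gene most like Irs2 across hearts was Nr4a1, an orphan nuclear receptor and immediate early gene. Likeness was the Pearson correlation of log2 CPM after the mean of each group was removed, over 18 hearts, with hearts permuted within groups, and the ranking took genes averaging 3 FPKM or more. Nr4a1 ran from 5.88 to 26.1 CPM with the blank vector, from 11.9 to 53.8 with PLCβ1a and from 12.6 to 33.3 with PLCβ1b. Its r with Irs2 was 0.950 and its Spearman rho 0.934, each with a permutation p of 1e-05, the smallest that 100000 permutations can give, and the permutation FDR over all genes was 0.0921.

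The relation between Irs2 and Nr4a1 was present in each group, with r = 0.977 for blank hearts, 0.963 for PLCβ1a and 0.950 for PLCβ1b. When the 2 hearts farthest from the median of Irs2 were left out r was 0.931, and without blank heart 30 alone it was 0.925. Next came Sik1, a kinase induced by cyclic AMP, with r = 0.845 (permutation p = 5e-05) and rho = 0.847 (permutation p = 0.00015). Blank heart 30 was the lowest of all 18 hearts and PLCβ1a heart 7 the highest for both Nr4a1 and Sik1. Neither was called between groups, with log2 fold changes against blank of 0.43 (SE 0.39) and 0.59 (SE 0.39) for Nr4a1 in PLCβ1b and PLCβ1a hearts.

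In all, 9 of 12280 other genes varied with Irs2 at a permutation FDR below 0.1, which is 0.0733% of them. Besides Nr4a1 and Sik1 they were Fos (r = 0.837), Fosl2 (0.818), Btg2 (0.780), Ctsk (0.887), Gpr180 (0.843), Snx1 (-0.832) and Lrp2 (-0.838), named after their values were seen. Lrp2, Ctsk and Gpr180 had low levels, with means of 0.113, 1.257 and 2.762 FPKM, under the 3 FPKM of the ranking. Fos, Fosl2 and Btg2 are known, like Nr4a1, as genes induced within minutes to hours of a stimulus. No other member of the insulin pathway lists was among the 9. Because 100000 permutations cannot give a p under 1e-05, a single gene could not pass over 12280, and several had to reach low values together. With 1000000 permutations 9 genes passed for Irs2 and 8 for Irs1.

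Irs1 had its own set. At the same permutation FDR, 6 of 12280 genes (0.0489%) varied with it, and none of them was among the 9 of Irs2. They were Entpd5 (r = -0.935), Patl1 (0.859), Pcif1 (-0.817), Tcap (-0.699) and the mitochondrial transfer RNA genes mt-Ti (0.834) and mt-Tw (0.894), named after their values were seen. Entpd5, an endoplasmic reticulum enzyme, ran from 64.0 to 98.9 CPM in blank hearts while Irs1 ran from 32.4 to 44.7. The lowest Entpd5 and the highest Irs1 both belonged to blank heart 30, and without it r was -0.923. On log2(FPKM + 0.1) r of Irs1 with Entpd5 was -0.739. By the ranking rule the genes most like Irs1 were Acadl, a fatty acid oxidation enzyme, with r = 0.839, and Clic5 with r = 0.805, but on log2(FPKM + 0.1) that of Acadl was 0.477.

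The mitochondrial share of counts moved with Irs1 across hearts, with r = 0.606 (permutation p = 0.0134) and rho = 0.626 (permutation p = 0.0115). Leaving out the 2 hearts farthest from the median of that share gave r = 0.511. After adjustment over 110 relations of the 10 genes with depth, mitochondrial share, cell type markers and Plcb1 these permutation p-values were 0.656 and 0.735. Of the 110 relations 5 had a Pearson permutation p below 0.05, among them Akt2 with the mitochondrial share (r = -0.567, permutation p = 0.0238). The part of this share in the set of Irs1 was not tested. Another of the 5 was Igf1r with the erythrocyte marker sum, in which Alas2 was the only marker with counts. There r was 0.461 (permutation p = 0.0393, adjusted p = 0.852) and rho 0.356 (permutation p = 0.145). The part of this marker in the Igf1r difference between PLCβ1a and blank hearts was not tested. For Irs2 the endothelial marker sum had r = -0.600 (permutation p = 0.0195) and rho = -0.525 (permutation p = 0.043), with adjusted p-values of 0.656 and 0.911. Its r was -0.392 when the 2 hearts farthest from the median of the marker sum were left out, and its part was not tested either.

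**Figure D5:**
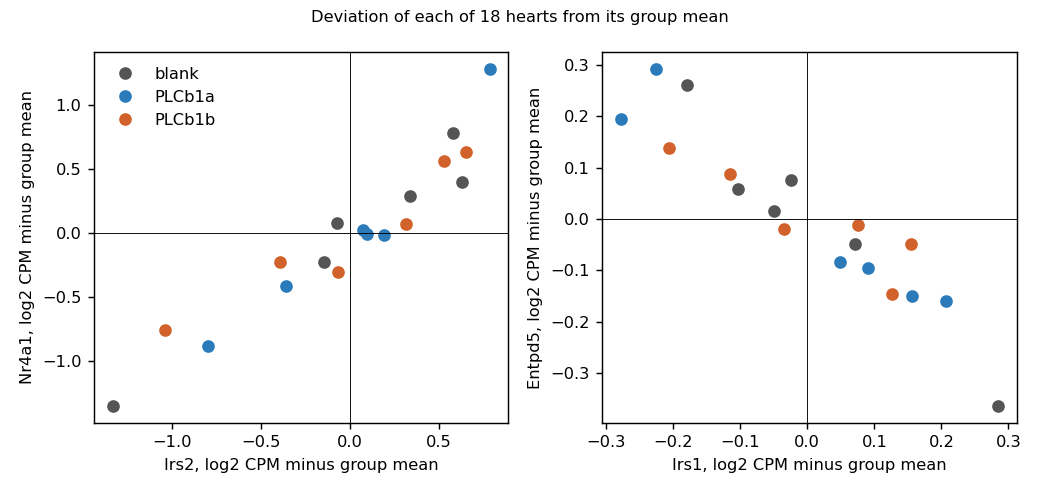
Deviation of each of 18 hearts from its group mean in log2 CPM, for Irs2 against Nr4a1 (left) and Irs1 against Entpd5 (right), coloured by vector group. The points rise along a line on the left (r = 0.950) and fall on the right (r = -0.935), and blank heart 30 is at the end of each.

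The promoter sequences of Irs1, Irs2 and Nr4a1 are shown because these genes carried the relations between hearts, and Irs1 and Irs2 had different partners. All 10 genes matched at least 1 promoter window of RefSeq (build GRCm38.p6), 16 windows in all among 32851. The 250 bases before the start of transcription were searched on both strands for the E-box CACGTG, the insulin response element core TGTTTTG, the FoxO element GTAAACA and the short cyclic AMP response element TGACG. Irs1 lies at chr1:82291440-82291689 (minus strand), Irs2 at chr8:11008930-11009179 (minus strand, where the RefSeq start lies upstream of that in the gene model given above) and Nr4a1 at chr15:101266596-101266845 (plus strand). Capitals mark these motifs on either strand, 5′ to 3′ along the gene.
Irs1: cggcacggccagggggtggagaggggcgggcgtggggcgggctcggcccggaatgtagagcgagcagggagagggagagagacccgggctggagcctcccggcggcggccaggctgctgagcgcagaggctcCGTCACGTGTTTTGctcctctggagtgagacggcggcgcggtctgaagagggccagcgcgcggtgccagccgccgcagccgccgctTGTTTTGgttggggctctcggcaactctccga
Irs2: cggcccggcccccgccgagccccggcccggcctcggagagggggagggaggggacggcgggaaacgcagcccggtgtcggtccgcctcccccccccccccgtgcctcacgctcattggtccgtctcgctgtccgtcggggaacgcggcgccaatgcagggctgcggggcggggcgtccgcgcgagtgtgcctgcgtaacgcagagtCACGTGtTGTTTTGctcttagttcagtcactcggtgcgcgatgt
Nr4a1: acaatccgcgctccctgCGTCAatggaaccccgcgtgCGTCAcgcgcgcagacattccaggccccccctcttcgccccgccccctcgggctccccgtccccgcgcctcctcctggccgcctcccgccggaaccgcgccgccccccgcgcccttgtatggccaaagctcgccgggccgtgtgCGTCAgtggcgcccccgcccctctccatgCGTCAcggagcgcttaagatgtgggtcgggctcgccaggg

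Irs1 and Irs2 were the members with an E-box, which 6.02% of all windows hold, and also those with TGTTTTG, which 5.56% hold. In Irs2 the E-box lies 44 to 39 bases before the RefSeq start and TGTTTTG 37 to 31 bases before it, 1 base apart. In Irs1 the E-box, at 115 to 110 bases, overlaps both TGTTTTG, at 111 to 105, and a TGACG on the opposite strand, at 118 to 114. Nr4a1 has 4 copies of TGACG, all on the opposite strand, a motif that 17.8% of windows hold, and the Irs2 window has none. Among the members TGACG was present for Akt2, Foxo3, Irs1 and Pik3r1. GTAAACA, held by 3.17% of windows, was present for Akt1 and Pik3cg. A match of letters describes the window and is not evidence of a bound factor.

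For the other 8 genes no gene passed a permutation FDR of 0.1. That is 0% of 12280 for each of Pik3r1, Pik3ca, Pik3cg, Akt1, Akt2, Foxo1, Foxo3 and Igf1r. The genes most like them are given as a description. For Pik3r1 these were Mbnl2, a splicing regulator, with r = 0.841 (permutation p = 0.00036) and Rc3h1 with r = 0.795 (permutation p = 0.00247). Without the 2 hearts farthest from the median of Pik3r1 these r were 0.713 and 0.547. For Igf1r the nearest was its family partner Insr, with r = 0.797 (permutation p = 0.00179) and rho = 0.695 (permutation p = 0.00678), followed by Bcl2l1 with r = 0.757 (permutation p = 0.0007). Within groups r of Igf1r with Insr was 0.611 for blank hearts, 0.920 for PLCβ1a and 0.379 for PLCβ1b, and over all hearts but the 2 farthest from the median of Igf1r it was 0.583.

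The nearest genes of the rest were Tmem123 and Pno1 for Pik3ca (both r = 0.795), Sirpa (0.778) and R3hcc1l (0.714) for Pik3cg, and Mapk12 (0.802) and Mospd1 (0.761) for Akt1. For Akt2 they were Pgls (0.836) and Nenf (0.819), for Foxo1 Asnsd1 (0.754) and Loxl1 (0.752), and for Foxo3 Crim1 and Nfkbia (both 0.801). Sirpa, a receptor of myeloid cells, stood beside Pik3cg, whose r was 0.428 with the summed leukocyte markers (permutation p = 0.12, adjusted p = 0.914) and 0.559 with the summed fibroblast markers (permutation p = 0.0158, adjusted p = 0.656). None of these reached an FDR of 0.1 over all genes.

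The 10 genes were also set against each other in 45 pairs. No pair reached a permutation FDR of 0.1, and 1 of the 45 had an unadjusted permutation p below 0.05. This was Pik3r1 with Pik3ca, the regulatory and the catalytic subunit of the main PI3K, with r = 0.523 (permutation p = 0.029) and rho = 0.573 (permutation p = 0.0212). Their r was 0.608 for blank hearts, 0.364 for PLCβ1a and 0.874 for PLCβ1b, and 0.401 when the 2 hearts farthest from the median of Pik3r1 were left out. For Irs1 with Irs2 r was 0.05 (permutation p = 0.855).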

How the data were processed

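RNA from 18 hearts (6 per vector group) had been sequenced as rRNA-depleted, strand-specific, paired-end libraries. Per the labels and methods, the authors aligned reads to mm10 with TopHat2 and deposited raw gene counts from HTSeq, which were used for all tests between groups. The authors also deposited FPKM values, for which the program was not given in the sources used here (Cufflinks is named in the processing notes). FPKM was used for levels between genes and family shares. Counts reached 13246339 to 24155465 per heart, 37 mitochondrial genes included.

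Genes were filtered with filterByExpr (minimum count 10, minimum total 15) and 12281 were fitted over all 3 groups with edgeR 4.0.16 (R 4.3.3; TMM scaling, quasi-likelihood test, robust shrinkage, Benjamini-Hochberg FDR below 0.1). Log2 CPM used a prior count of 2. Intervals are 95% confidence intervals. Alternatives used DESeq2 1.42.0, limma 3.58.1 on log2(FPKM + 0.1) and log2(FPKM + 1), edgeR's exact test, other scalings and filters, and each heart left out. Correlations and share tests used Python 3.11.15 with numpy 2.4.6 and scipy 1.17.1. The fits and correlations were first tested on simulated data. All 10 members were described, each pathway list was named by its called genes or otherwise the 2 with the lowest p, with family partners and Plcb1 added, and for each member the 2 genes averaging 3 FPKM or more with the highest positive r were named. The members and lists were chosen with earlier results of these data known, and the share tests were added after values were seen. Replicates are separate mice. Some results of the named-gene rule are not reported here.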

Additional observations from a re-analysis of the deposited data

Results flagged for a closer look

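In 4 of the 30 sets of hearts (10 genes in 3 groups) a single heart lay far from the other 5 by Dixon's gap ratio, the gap to the nearest heart over the group's range, which chance alone exceeds in about 1 of 20 groups. Pik3r1 in blank heart 30 had 125.5 CPM, with the nearest heart at 104.0 CPM. Pik3ca in PLCβ1b heart 4 had 43.51 CPM, with the nearest at 46.53 CPM. Pik3cg in PLCβ1a heart 13 had 2.363 CPM, with the nearest at 1.893 CPM. Foxo1 in PLCβ1b heart 6 had 9.787 CPM, with the nearest at 11.41 CPM.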

How the results depend on the processing

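Of the 10 genes, 1 (Pik3r1) was called for PLCβ1b against blank with DESeq2, and likewise 1 without a filter on low counts, and leaving out single hearts gave 0 to 1 (called without blank heart 26). For PLCβ1a against blank DESeq2 called 1 (Akt1). Of the further pathway genes, leaving out single hearts gave 0 to 1 for PLCβ1a against blank (Sesn1 without PLCβ1a heart 9). The cause was not tested. Over all settings the FDR of Pik3r1 for PLCβ1b against blank ran from 0.0744 to 0.45 and its log2 fold change from -0.256 to -0.173. Among 1396 recomputed fold changes 1367 kept their direction and side of the threshold, 9 passed it and 20 changed sign. Of the values that changed sign, the farthest from 0 was -0.101, for Irs2 in PLCβ1a against blank without PLCβ1a heart 7. Of the 9 that passed, 4 were of Plcb1 for PLCβ1b against PLCβ1a. Pik3ca for PLCβ1b against blank was 0.00237 among genes averaging 3 FPKM or more, and Akt2 for PLCβ1b against PLCβ1a was -0.056 and -0.052 with limma on log2(FPKM + 0.1) and log2(FPKM + 1). With single hearts left out, PLCβ1b against blank ran from -0.0188 to 0.0112 for Pik3ca and -0.0541 to 0.00322 for Akt2. PLCβ1a against blank ran from -0.101 to 0.263 for Irs2 and -0.0616 to 0.00022 for Akt2. PLCβ1b against PLCβ1a ran from -0.169 to 0.0214 for Pik3cg, -0.0697 to 0.0212 for Irs1 and -0.0229 to 0.0276 for Akt2. All genes called numbered 12, 17 and 0 in the 3 comparisons, 24, 33 and 1 with DESeq2, 22, 45 and 2 with edgeR's exact test, and 5, 5 and 0 with limma. All 731 recomputed correlations kept their sign. With 1000000 permutations Clic5 and the mitochondrially encoded gene mt-Nd4 passed for Irs1, which they had not with 100000. No paired analysis was possible because no replicate number is shared between the groups. Foxo1, Igf1r, Irs2 and Pik3cg lie under 3 FPKM and had no value under that filter.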
